A study of Sus scrofa with 23 samples.

Results

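The step from morula to blastocyst in cloned pig embryos was followed in 6 of the 23 libraries of the series, namely the morula (MO) and the IT and TE parts of the blastocyst for each of 2 donor lines. The NT-D embryos were made by nuclear transfer from ear fibroblasts of a Duroc boar, and the NT-LW embryos from ear fibroblasts of a Laiwu boar, each boar giving 1 cell line. Both lines share the same history otherwise, with nuclei placed in enucleated in vitro matured oocytes and embryos cultured in PZM3 medium. The IT part is the piece of a cut blastocyst that holds the inner cell mass together with trophectoderm, and the TE part is the piece with trophectoderm alone. Each library came from a pool of about 5 to 10 cloned embryos. As an outside reference, the same 3 samples were read in the IV-D group. Its embryos were fertilized in Duroc sows by the same Duroc boar and flushed out with no culture. The clones were all male, whereas IV-D pools mixed male and female embryos that were not sexed. The authors state that this may shift genes of the sex chromosomes in particular. There was 1 library per condition, so a single comparison has no replicate check. The IT and TE libraries of a line were set against the same morula library, so the 4 comparisons are 2 pairs that share their control.

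During this step a compact ball of cells becomes a hollow sphere. The outer cells form the trophectoderm, an epithelium that pumps and seals the cavity and later gives rise to the placenta, while the inner cell mass gives rise to the embryo proper and the hypoblast. Transcripts inherited from the oocyte have by then been largely replaced by those of the embryonic genome.

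In a comparison, a gene counted as higher or lower if its log2(FPKM + 1) in the blastocyst part lay over 1 above or below that in the morula and its FPKM, the fragments per kilobase of gene scaled to library depth, was at least 1 in one of them. Of 7207 genes that could be read in all 4 comparisons, 285 (3.95%) were higher in all 4 blastocyst libraries and 1105 (15.3%) were lower in all 4. The balance of these numbers depends on scaling. Over all genes the median log2 difference was -0.64, -0.69, -0.51 and -0.78 for NT-D IT, NT-D TE, NT-LW IT and NT-LW TE, so most genes had lower FPKM in the blastocyst. After the libraries were rescaled to a common median ratio, all 285 higher genes stayed past the limit among 660, and 332 of the 1105 lower genes (4.61% of the genes read) did. This scaling divided the morulae by 1.40 and 1.39 and the blastocyst libraries by 0.77 to 0.94. It lowered no difference, so no higher gene could drop out, and it is a check on the lower genes only. The leading lower genes described here are from those 332, while counts of lower genes in the gene lists are as deposited, with those past the limit under both scalings given beside them. Members nearest the limit had a smallest difference of 1.0036 for the higher and 1.00006 for the lower genes, and the nearest genes outside had 0.997 and 0.999997.

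By comparison, 732 genes (9.31%) were higher and 2757 (35.1%) lower in NT-D IT, and 679 (8.66%) were higher and 3017 (38.5%) lower in NT-D TE. In NT-LW IT 674 genes (9.1%) were higher and 2081 (28.1%) lower, and in NT-LW TE 649 (8.79%) were higher and 2973 (40.3%) lower. Higher genes thus made up between 17.9% and 24.5% of the calls as deposited. After median-ratio scaling they made up 47.0% to 55.8%. The counts were then 1413 higher (18%) and 1350 lower (17.2%) in NT-D IT, 1458 (18.6%) and 1644 (21%) in NT-D TE, 1172 (15.8%) and 928 (12.5%) in NT-LW IT, and 1332 (18%) and 1162 (15.7%) in NT-LW TE. After scaling an excess of lower genes was left in NT-D TE alone.

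**Figure D1:**
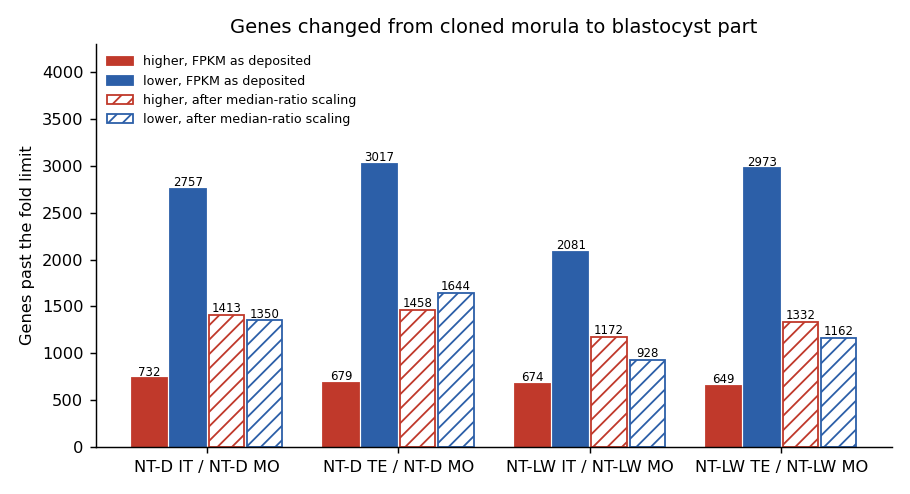
Genes past the fold limit in each clone comparison (horizontal axis), counted as higher (red) or lower (blue) than the morula, with FPKM as deposited (filled bars) and after median-ratio scaling (hatched bars). Lower genes outnumber higher ones in every comparison as deposited, 2757 to 732 in NT-D IT for example, and the numbers come close to each other after scaling, 1350 to 1413.

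Depth was 15596761 to 21503604 fragments in the 6 libraries, of which the genes of the table held 94.6% to 97.2%. A count of 3 fragments, taken as the floor, then corresponds to 0.14 to 0.192 FPKM for a gene of 1 kb. The number of genes with FPKM of at least 1 fell from 7738 in NT-D MO to 6635 in IT and 6347 in TE, and from 7183 in NT-LW MO to 6682 and 6375. The 100 most abundant genes held 34.0% of the fragments in NT-D MO and 28.4% in NT-LW MO, against 37.3% to 48.9% in the 4 blastocyst libraries. Fibroblast markers, which would show donor cells, summed to 7.55 and 8.31 FPKM in the morulae and to at most 0.525 in the blastocyst libraries. COL1A1 was below 0.4 FPKM in all 6 libraries. Of 22 such markers 6 were in the table and 2 could be read in all 4 comparisons. VIM was the only 1 of them lower in all 4. Of 23 hypoblast markers 14 were in the table and 6 could be read in all 4 comparisons, none of these past the limit in all 4, and POU5F1, SOX2 and CDX2 were not in it. In bulk RNA, fewer cells of a type and less RNA per cell cannot be told apart.

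With the 2 donor lines taken as 2 samples of each stage, limma with donor line as a block called 397 genes (4.95% of 8013) higher and 1536 (19.2%) lower in both parts at an adjusted p under 0.05 and a mean difference over 1. It called 282 of the 285 higher genes and 1068 of the 1105 lower ones. The members were chosen from the same libraries for agreement of both lines, so this overlap is no separate check. The limma fit has 2 residual degrees of freedom, and its residual measures only how far the donor lines disagree in their changes between stages. It also borrows spread from the other genes, with a median of 5.43 prior degrees of freedom. The lines lay apart by a median of 0.54 in the IT difference of the higher genes and 0.61 in the TE difference, against 0.53 and 0.62 over all genes tested.

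**Figure D2:**
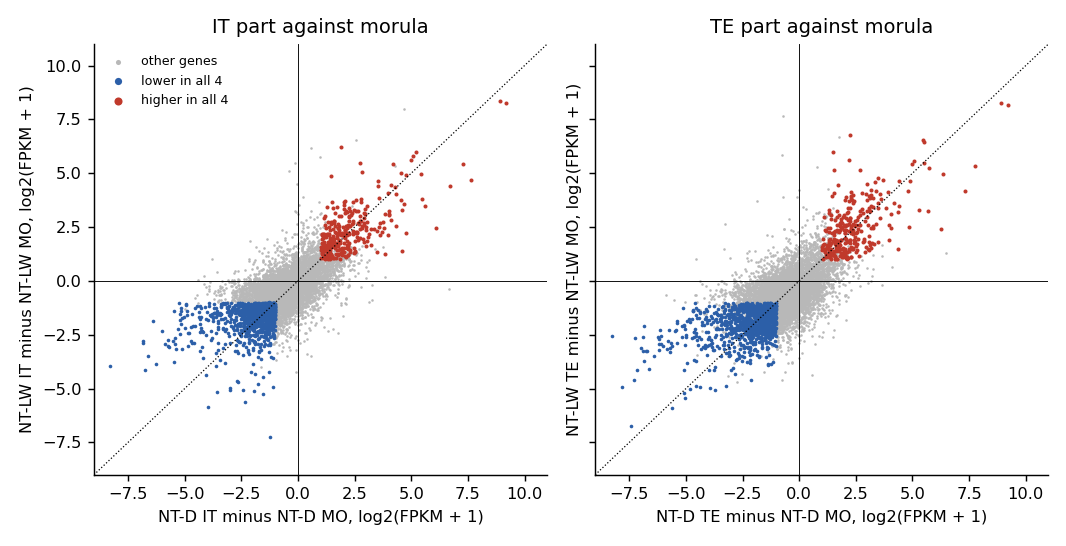
Log2(FPKM + 1) difference from morula in NT-D (horizontal axis) and NT-LW (vertical axis) for the IT part (left) and the TE part (right), 1 point per gene, with genes higher in all 4 libraries in red, lower in all 4 in blue and the others in grey. FCER1G, with differences of 8.25 to 9.16, and 1 gene without a symbol, ENSSSCG00000035724, with 8.17 to 9.21, stand apart at the upper right, and the blue points reach further along the NT-D axis, TRIM77 for example with -6.75 in NT-D IT and -4.11 in NT-LW IT.

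The 285 higher genes were lowly expressed before the blastocyst. Their median was 3.14 and 3.40 FPKM at the 8-cell stage of NT-D and NT-LW, 7.46 and 6.42 in the morulae, 44.6 and 39.97 in IT, and 47.9 and 40.8 in TE. Together they took 3.94% of table fragments in NT-D MO and 3.19% in NT-LW MO, and 14.0% to 15.7% in the blastocyst libraries. These values describe how the genes were chosen and carry no test.

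FCER1G, the gamma chain shared by Fc receptors and other immune receptors, had the largest difference among genes with a symbol in all 4 comparisons. It was 0.83 FPKM (12 fragments) in NT-D MO and 0.371 (5 fragments) in NT-LW MO, against 1049 in NT-D IT, 880 in NT-D TE, 417 in NT-LW IT and 420 in NT-LW TE. The fold was 1264 (95% counting interval 724 to 2447) in NT-D IT and 1125 (482 to 3465) in NT-LW IT. No blastocyst value came near a morula value. The gene lies at chr4:89242467-89246344 of Sscrofa11.1, and its near neighbour APOA2, a lipoprotein component, at chr4:89237514-89239126 was another leading member. APOA2 was 4.02 FPKM in NT-D MO and 25.5 in NT-LW MO, and 793, 409, 1143 and 833 in NT-D IT, NT-D TE, NT-LW IT and NT-LW TE. Here the morulae of the lines lay further apart in ratio than their blastocyst parts did.

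Several enzymes followed. UPP1, a uridine phosphorylase of pyrimidine salvage, was 28.8 and 24.5 FPKM in NT-D and NT-LW morulae and 1295, 1582, 803 and 963 in the 4 blastocyst libraries, folds of 32.8 to 55.0. MGST1, a microsomal glutathione transferase, was 2.32 and 6.65 FPKM in the morulae and 669, 724, 193 and 306 afterwards. Its fold was 289 (217 to 393) in NT-D IT but 29.1 (24.3 to 35.0) in NT-LW IT, and the counting intervals do not meet. RGN, a calcium-binding lactonase, was 5.53 and 21.8 FPKM in the morulae and 690, 1047, 487 and 415 in the blastocyst libraries. NAAA, a lysosomal amidase, was 5.44 and 7.12 FPKM and then 152, 191, 108 and 202. PLA2G10, a secreted phospholipase, was 8.90 and 4.79 FPKM and then 199, 208, 93.8 and 142. All 4 blastocyst libraries lay above both morulae for each of these genes.

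Among the other leading genes, CST6, a secreted inhibitor of cysteine proteases, was 14.8 and 3.52 FPKM in the morulae and 576, 698, 286 and 418 in the blastocyst libraries. DPP4, a membrane dipeptidase, was 0.843 and 0.65 FPKM and then 61.3, 83.3, 92.02 and 144. MYL3, a myosin light chain, was at 3 fragments in NT-D MO and 0 in NT-LW MO, and at 33.4, 57.5, 29.4 and 43.9 FPKM in the blastocyst libraries. Against the level of 3 fragments it was at least 102-fold higher in NT-LW IT and at least 153-fold higher in NT-LW TE. NUPR1, a stress-induced nuclear protein, was already 100.4 and 31.6 FPKM in the morulae and reached 1877, 1537, 1424 and 570. SLC66A3, a membrane transporter, was 3.82 and 1.45 FPKM and then 113, 153, 76.7 and 105.

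**Figure D3:**
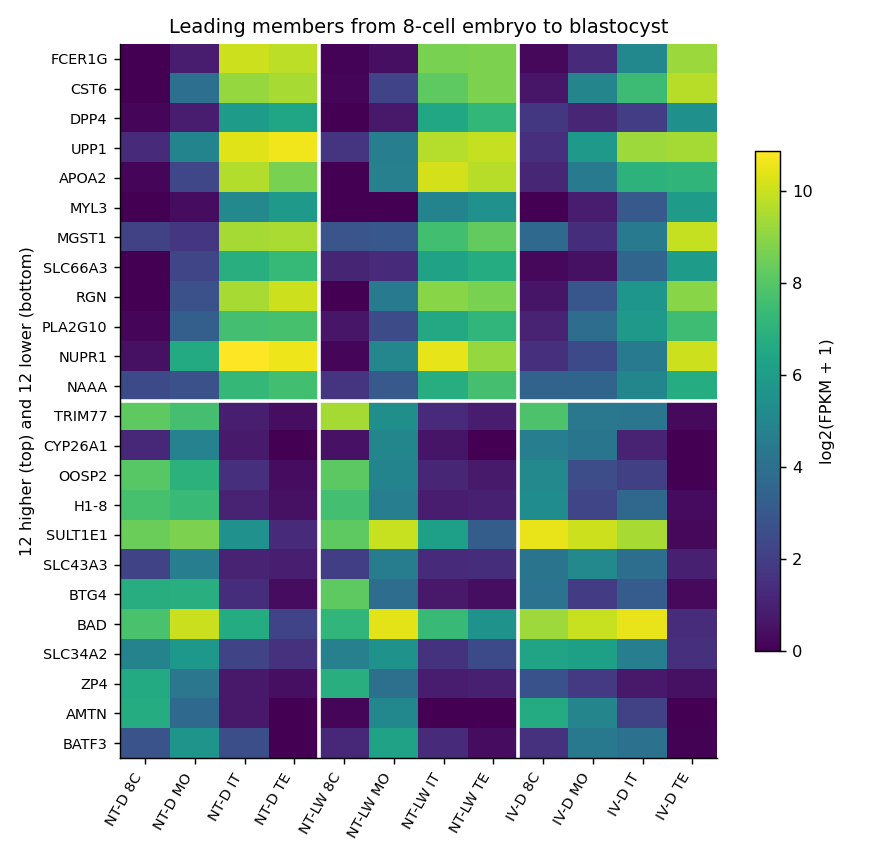
Log2(FPKM + 1) (colour) of the 12 leading higher genes (top) and 12 leading lower genes (bottom) in the 8-cell, morula, IT and TE libraries (columns) of the clones and of IV-D embryos. The upper block turns bright between MO and IT in the clones, FCER1G from 0.83 to 1049 FPKM in NT-D, whereas in IV-D this gene is brightest in TE, with 601 FPKM against 33.02 in IT.

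Sterol synthesis genes had the highest median difference of the gene lists, whose counts stand against 3.95% of all genes higher in all 4 libraries and 15.3% lower. Of 16 genes of cholesterol biosynthesis in the table, 9 were higher in all 4 libraries and 1, the sterol carrier STARD4, was lower as deposited but not after scaling, with a median difference of 2.47 over the list against -0.64 over all genes. MSMO1, a sterol demethylase, was 28.9 and 62.5 FPKM in NT-D and NT-LW morulae and 709, 831, 617 and 1139 in NT-D IT, NT-D TE, NT-LW IT and NT-LW TE. SQLE, the squalene epoxidase, was 6.05 and 4.82 FPKM and then 53.7, 62.5, 58.0 and 106. CYP51A1 was 1.23 and 1.88 FPKM and then 15.9, 22.2, 24.5 and 51.3. Other higher genes of the list were IDI1, ACAT2, EBP, HMGCS1 and INSIG1, the last of which restrains the pathway. In each line SQLE and MSMO1 were higher in TE than in IT. The morula was a low point: MSMO1 had been at 374 and 370 FPKM at the 8-cell stage and SQLE at 29.4 and 24.7.

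Sterol genes are classically driven by SREBP factors through the sterol regulatory element. The letters TCACNCCAC were looked for on both strands in the 250 bases before the RefSeq gene start of Sscrofa11.1 for the 6838 genes of the table with such a window. They were in 0.775% of all windows and in 2 of the 7 windows of higher sterol genes, HMGCS1 and SQLE, and in 0 of 7 windows of the other genes of the list. The 120 bases that hold them are shown because the 2 genes are steps of the pathway, with the matching letters in capitals, the first from chr16:27957353-27957472 and the second from chr4:14700240-14700359, both on the minus strand.
HMGCS1: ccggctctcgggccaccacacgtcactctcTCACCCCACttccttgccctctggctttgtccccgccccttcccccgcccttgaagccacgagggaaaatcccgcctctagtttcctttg
SQLE: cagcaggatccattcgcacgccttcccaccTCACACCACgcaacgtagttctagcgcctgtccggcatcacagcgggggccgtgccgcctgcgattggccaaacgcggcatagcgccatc
A match describes letters and is not evidence of a bound site, and windows depend on where RefSeq puts the start.

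Genes of protein folding in the endoplasmic reticulum and of amino acid stress were also mostly higher. Of the 20 genes present 11 were higher in all 4 libraries and none was lower, with a median difference of 1.85 against -0.64 over all genes. HSPA5, the main chaperone of the endoplasmic reticulum, was 58.8 and 119 FPKM in NT-D and NT-LW morulae and 661, 675, 600 and 1242 in the blastocyst libraries. HSP90B1, a chaperone of the same compartment, was 88.5 and 84.99 FPKM and then 643, 777, 503 and 1221. XBP1, a transcription factor of the unfolded protein response, was 12.98 and 10.5 FPKM and then 72.3, 82.3, 71.4 and 90.02. HERPUD1, a part of the degradation machinery, was 12.5 and 4.47 FPKM and then 70.1, 90.8, 47.4 and 90.7. CHAC1, a glutathione-degrading target of the amino acid response, was 1.17 and 0.997 FPKM and then 6.84, 10.7, 6.28 and 6.38. ASNS, asparagine synthetase, differed in fold between the lines, 2.85 in NT-D IT and 13.1 in NT-LW IT, with 153 FPKM in NT-D MO against 39.4 in NT-LW MO. The others were CRELD2, PDIA6, PDIA4, DNAJB9 and SEL1L.

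The ER stress element, which is CCAAT, then any 9 bases, then CCACG, was searched in the same windows on both strands. It was in 8 of 6838 windows (0.117%), and 6 of those 8 belonged to the list, 4 of the 11 higher genes (CRELD2, HSP90B1, PDIA6, XBP1) and 2 of the 9 others (CALR and CANX). The higher 4 are shown with the element in capitals. Their stretches are chr5:716767-716886, chr5:80531062-80531181 and chr14:46016527-46016646 on the minus strand for CRELD2, HSP90B1 and XBP1, and chr3:125751887-125752006 on the plus strand for PDIA6.
CRELD2: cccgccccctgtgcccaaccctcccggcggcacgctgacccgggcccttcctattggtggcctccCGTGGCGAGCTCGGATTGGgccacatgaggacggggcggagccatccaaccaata
HSP90B1: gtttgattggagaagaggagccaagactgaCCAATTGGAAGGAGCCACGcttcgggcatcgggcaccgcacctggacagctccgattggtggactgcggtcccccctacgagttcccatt
PDIA6: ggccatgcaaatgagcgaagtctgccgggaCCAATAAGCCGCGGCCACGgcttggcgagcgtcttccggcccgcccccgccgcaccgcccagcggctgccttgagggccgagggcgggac
XBP1: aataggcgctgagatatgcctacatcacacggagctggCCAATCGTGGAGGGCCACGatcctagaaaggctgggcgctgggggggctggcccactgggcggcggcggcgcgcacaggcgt
In CRELD2 the element reads on the opposite strand. CALR, which also holds the element, was not past the limit in NT-LW IT, with differences of 1.45, 1.604, 0.85 and 1.28, and CANX passed in NT-LW TE only, with 1.597.

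Lysosomal genes behaved alike. Of the 23 genes present 11 were higher in all 4 libraries and 1 was lower, with a median difference of 1.88. LGMN, a lysosomal protease, was 17.5 and 16.3 FPKM in the morulae and 247, 267, 113 and 182 in the blastocyst libraries. NPC2, which carries cholesterol out of the lysosome with NPC1, was 126 and 97.0 FPKM and then 760, 1018, 922 and 1335. NPC1 itself was 12.4 and 6.01 FPKM and then 62.7, 55.3, 53.7 and 104. Other higher genes were PSAP, CTSD, LAMP2, CD63, GLA, TPP1 and HEXA. ATP6V0D2, a subunit of the proton pump, was the lower one, with 216 and 322 FPKM in the morulae and 35.9, 24.6, 44.3 and 27.4 afterwards. The CLEAR element, CACGTGAC, through which TFEB acts on lysosomal genes, was in 2.79% of all windows and in 1 of the 11 higher genes, HEXA, which holds it in 2 places where it overlaps its own reverse complement. The stretch is chr7:60878408-60878527 on the plus strand, shown as the only match among the 11.
HEXA: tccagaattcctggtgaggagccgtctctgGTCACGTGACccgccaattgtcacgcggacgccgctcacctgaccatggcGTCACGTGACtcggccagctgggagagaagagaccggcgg
The share in this list is thus 1 gene. Sites of TEAD factors (GGAATG) were in 9.91% of the 222 windows of higher genes and 9.64% of all windows, and sites of TFAP2 (GCCNNNGGC) in 25.7% and 23.7%.

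**Figure D4:**
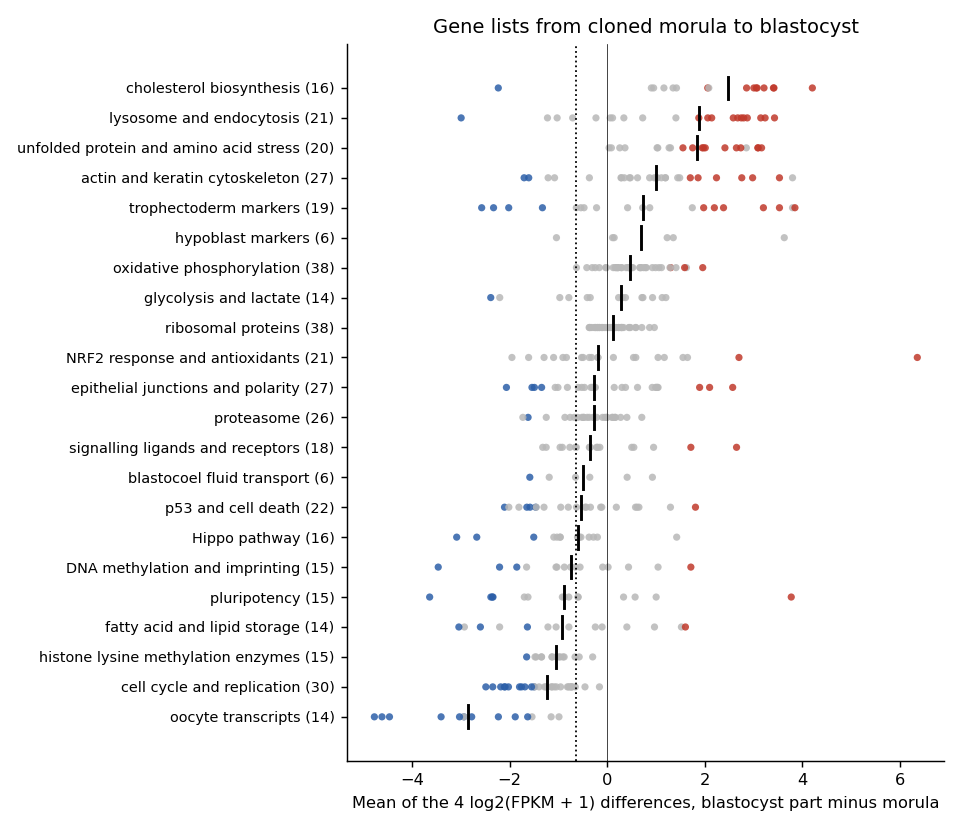
Mean of the 4 log2(FPKM + 1) differences (horizontal axis) of each gene in the lists with at least 5 genes read in all 4 comparisons (number in brackets), with genes higher in all 4 in red, lower in all 4 in blue, the others in grey, the list median as a black bar and the median of all genes (-0.64) as a dotted line. Cholesterol biosynthesis has the highest median, 2.47, and oocyte transcripts the lowest, -2.86.

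Trophectoderm markers did not move as a block. Of the 19 genes present 6 were higher in all 4 libraries, 4 were lower (2 of them, GRHL2 and DLX5, under both scalings) and 9 were neither, with a median difference of 0.73. DLX5 stands in this marker list, but the authors of the study placed it among transcripts specific to the inner cell mass of IV-D blastocysts. GATA3, a transcription factor of trophectoderm, was 3.17 and 1.59 FPKM in NT-D and NT-LW morulae and 17.1, 18.5, 14.4 and 15.1 in the blastocyst libraries. KRT8, the simple epithelial keratin, was 161 and 19.8 FPKM and then 441, 735, 600 and 1033, and its partner KRT18 was 269 and 14.5 FPKM and then 532, 917, 834 and 1593. KRT18 missed the limit in NT-D IT, with a difference of 0.98. The morula of NT-D thus already had more of both keratins than that of NT-LW, and 142 and 199.9 FPKM were measured in IV-D MO. S100A11, ANXA2 and PTGES were also higher, PTGES with folds of 2.31 to 9.75. GRHL2, an epithelial transcription factor, was 14.8 and 9.01 FPKM in the morulae and 1.999, 2.31, 2.56 and 1.63 later. TEAD4 was 19.2 and 14.3 FPKM and then 4.36, 7.47, 6.64 and 5.90, past the limit in all 4 as deposited but not after scaling.

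Genes of cell architecture were called in both directions. Of 30 actin and keratin genes 6 were higher in all 4 libraries as deposited and 15 after scaling, where 660 of 7207 genes were. Lower were 2, VIM under both scalings and LCP1 as deposited. ACTB was 30.4 and 10.99 FPKM in the morulae and 149, 154, 126 and 185 in the blastocyst libraries, with CAPG, MSN, MYL9, TPM4 and KRT8 beside it. Of 28 junction and polarity genes 3 were higher, the desmosomal cadherins DSC2 and DSG2 and the tight junction protein TJP3, and 4 were lower, among them the tight junction gene CLDN10, the polarity gene PARD3 and the connexin GJB5, with only CLDN10 lower under both scalings. The lower count is near the 15.3% of all genes. DSC2 was 28.4 and 15.4 FPKM and then 133, 137, 90.4 and 172. GJB5 was 114 and 84.8 FPKM and then 35.0, 50.8, 34.7 and 34.5, a difference that did not pass the limit in all 4 after scaling. The list as a whole had a median of -0.27, between the extremes. Of 8 genes of blastocoel fluid transport none was higher and SLC12A2, an ion cotransporter, was lower as deposited but not after scaling. Of 17 Hippo pathway genes none was higher and 3 were lower, again near the share of all genes, CCN2 and WWTR1 under both scalings and the kinase STK4 as deposited. WWTR1, which encodes the coactivator TAZ, was 29.6 and 59.8 FPKM in the morulae and 7.54, 3.64, 9.67 and 3.94 later.

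Among the 332 lower genes the median was 16.4 FPKM in NT-D MO, 10.8 in NT-LW MO and 5.77 in IV-D MO. It was 1.47 and 1.36 in the IT parts and 0.665 and 0.926 in the TE parts of the clones. At the 8-cell stage the medians of the 3 groups were close, 11.6 FPKM in NT-D, 13.5 in NT-LW and 12.2 in IV-D. Close medians do not show that single genes were alike, and the genes were not compared 1 by 1 at that stage. The morula of NT-D exceeded that of IV-D by more than 1 on the log2 scale for 166 of these genes and the morula of NT-LW for 111, with 90 genes in common. For these, the fall in the clones was measured from a morula level above that of IV-D. All 332 were chosen for clone morulae above the clone blastocyst parts, which favours such an excess. The share of all genes with this excess was not computed.

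Oocyte transcripts were prominent. Of the 20 genes present 10 were lower in all 4 libraries, 8 of them under both scalings, and none was higher. BTG4, an adaptor for the clearance of maternal mRNA, was 111 FPKM in NT-D MO and 14.0 in NT-LW MO, against 1.67, 0.297, 0.666 and 0.334 in the blastocyst libraries. In IV-D MO it was 2.72. BMP15, an oocyte growth factor, was 116 FPKM (2853 fragments) in NT-D MO, 5.90 (135 fragments) in NT-LW MO and 0.585 in IV-D MO, and had between 0 and 3 fragments in each blastocyst library of the clones. WEE2, an oocyte kinase, was 72.8 FPKM in NT-D MO, 8.89 in NT-LW MO and 4.54 in IV-D MO and at most 0.421 in the blastocyst libraries of the clones. The summed level of the list was 632 FPKM in NT-D MO, 122 in NT-LW MO and 41.2 in IV-D MO, and 18.4 to 32.5 in the blastocyst parts of the clones. The part of the high level in the NT-D morula in the size of these differences was not tested. The whole list at IV-D TE summed to 222 FPKM, nearly all of it UCHL1 with 215.

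Other leading lower genes had also been higher at the 8-cell stage. TRIM77 was 205 FPKM in NT-D MO and 41.9 in NT-LW MO and 0.907, 0.332, 1.48 and 0.754 later, after 291 and 673 at the 8-cell stage. OOSP2, an oocyte-secreted protein, was 266 and 283 FPKM at that stage, 126 and 28.8 in the morulae and then 1.86, 0.281, 1.22 and 0.745. H1-8, the oocyte linker histone, was 206 and 199 FPKM, then 160 and 24.2 in the morulae, and later 1.08, 0.411, 0.767 and 0.934. ZP4, of the zona pellucida, was 100.4 and 114 FPKM, then 18.7 and 15.2 in the morulae, and later 0.699, 0.38, 0.771 and 0.94. Each of these had its morula level above all blastocyst levels in both lines.

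A second kind of lower gene was higher in the morula than at the 8-cell stage in both lines. CYP26A1, which degrades retinoic acid, was 1.37 and 0.457 FPKM at the 8-cell stage, 27.6 and 31.0 in NT-D and NT-LW morulae, 0.706 and 0.532 in IT and 0 in both TE libraries. Against the level of 3 fragments it was at least 325-fold lower in NT-D TE and at least 414-fold lower in NT-LW TE. BATF3, a transcription factor, was 5.93 and 1.41 FPKM at the 8-cell stage, 47.97 and 75.4 in the morulae, 5.14 and 1.43 in IT, and 0 and 0.277 in TE. BAD, a BH3-only protein of cell death, was 212 and 143 FPKM at the 8-cell stage, 1028 and 1390 in the morulae, 102 and 159 in IT and 3.53 and 45.5 in TE. SULT1E1, an estrogen sulfotransferase, was 423 and 986 FPKM in the morulae, 44.3 and 69.3 in IT and 1.49 and 8.23 in TE. For BAD, BATF3 and SULT1E1 both TE libraries lay below both IT libraries. SLC43A3 and SLC34A2, both transporters, were 24.2 and 23.4 and 55.1 and 45.2 FPKM in the morulae and at most 1.67 and 4.47 in the blastocyst libraries. AMTN, which had 107 and 0.0952 FPKM at the 8-cell stage and so followed this course in NT-LW only, was 12.3 and 32.5 in the morulae, 0.662 in NT-D IT and 0 in the other 3.

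Cell cycle genes were lower by less. Of the 30 genes present 11 were lower in all 4 libraries and none was higher, with a median difference of -1.24, but only TK1, PLK1, MCM6 and CCNE1 were lower under both scalings. MCM6, of the replicative helicase, was 89.2 and 108 FPKM in the morulae and 21.8, 16.9, 30.3 and 20.9 later. CCNE1, the G1/S cyclin, was 12.4 and 24.2 FPKM and then 2.94, 1.18, 2.91 and 2.43. DNMT1, the maintenance DNA methyltransferase, was 147 FPKM in NT-D MO and 37.0 in NT-LW MO and then 6.58, 4.91, 6.53 and 5.30.

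Pluripotency genes went in both directions. Of the 16 genes present 1 was higher in all 4 libraries, DPPA5, with 23.7 and 16.04 FPKM in the morulae and 281, 220.4, 359 and 273 in the blastocyst parts, folds of 9.31 to 22.4. Lower in all 4 were OTX2, KLF17, KLF4 and LIN28A, the former 2 under both scalings. OTX2 was 58.0 and 79.5 FPKM in the morulae, 9.56 and 25.3 in IT, and 0.797 and 0.876 in TE. KLF17 was 16.5 and 14.8 FPKM and then 2.56, 1.18, 2.45 and 3.30. KLF5 was 56.0 and 54.9 FPKM and then 99.0, 122, 110 and 119, under the limit in both IT parts.

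Changes of one blastocyst part were few. A gene was assigned to a part when it passed the limit in that part in both lines, did not pass it in the other part of either line, and IT and TE differed by more than 1. That left 6 genes (0.0833%) higher in IT alone and none lower, and 10 genes (0.139%) lower in TE alone and none higher. Under both scalings 4 of the 6 and 7 of the 10 kept this place, and after scaling alone 14 genes were lower in TE alone. Between the parts themselves, IT lay over 1 above TE in log2 for 292 of 6757 NT-D genes and 345 of 6801 NT-LW genes. TE lay over 1 above IT for 26 and 80 of these genes. Smaller gaps were not counted, and IT minus TE had a median of 0.03 for NT-D and 0.26 for NT-LW. As IT also contains trophectoderm, a transcript of the trophectoderm is present in both parts.

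HBB, a globin, was higher in IT alone, at 10.9 and 21.3 FPKM in the IT parts of NT-D and NT-LW against 0.476 and 1.53 in MO and 0 and 2.29 in TE. LXN, a carboxypeptidase inhibitor, was 21.6 and 47.4 FPKM in IT against 4.62 and 7.48 in MO and 8.80 and 15.3 in TE, and PROS1, the anticoagulant protein S, was 6.18 and 15.4 in IT against 1.89 and 4.34 in MO and 2.54 and 2.87 in TE. Neither LXN nor PROS1 kept this place after scaling. SLC3A1 and C4BPA, both under 10 FPKM, and a gene without a symbol were the other members. HBB was the only one of 11 blood cell markers in the table, so presence of blood RNA could not be read from a list. APOA1, an apolipoprotein of the hypoblast list, was 144 and 458 FPKM in the IT parts against 4.69 and 0.812 in MO. It was 0.574 and 22.8 in TE, so NT-LW TE was also past the limit as higher, and NT-D TE was past it as lower. The list did not follow this gene in NT-D, with median differences of -0.03 in IT and -1.25 in TE. In NT-LW they were 1.49 and 0.30.

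NANOG, the pluripotency factor, was lower in TE alone. It was 5.55 and 6.75 FPKM in NT-D and NT-LW morulae, 5.00 and 3.76 in IT, and 0 in both TE libraries, at least 26.4-fold and 36.4-fold lower there. SPIC, an ETS factor, was 26.3 and 190.1 FPKM in the morulae, 46.5 and 117 in IT and 2.06 and 8.08 in TE, and did not keep this place after scaling. CTSC, a lysosomal protease, was 12.5 and 22.3 FPKM, then 16.3 and 21.4 in IT and 0.867 and 3.61 in TE. Likewise DIRAS3, an imprinted gene, was 12.1 and 8.04 FPKM, then 6.22 and 4.95 in IT and 0.867 and 0.80 in TE. TLR3, a receptor for double-stranded RNA, was 3.30 and 10.1 FPKM, then 3.02 and 4.73 in IT and 0.171 and 0.754 in TE. SFT2D2, of vesicle transport, kept 7.16 and 6.27 FPKM in IT after 6.68 and 10.5 in MO, and had 1.44 and 2.01 in TE. GSC and FAM111A, and ZFP36L2 and a gene without a symbol, which left the group after scaling, made up the 10. In IV-D embryos NANOG was 7.73, 9.80 and 0 FPKM in MO, IT and TE, and SPIC was 310.5, 376 and 0.0841, so the TE parts were the low ones there as well.

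The same genes were then read in the IV-D embryos, which were not used to choose them. Of the 285 genes higher in the clones, 229 (80.4%) were higher in IV-D TE against IV-D MO, where 12% of all genes were, and 123 (43.2%) in IV-D IT, where 7.7% were. In both parts 109 passed, where 3.94% of all genes did, and 41 passed in neither. SYCP3, of the synaptonemal complex, was lower in both IV-D parts, and 1 gene without a symbol was lower in IT. Of the 332 lower genes 245 (73.8%) were lower in IV-D TE, where 24.6% of all genes were, and 96 (28.9%) in IV-D IT, where 7.59% were. Passing in both were 92, where 5.54% of all genes did, and 77 passed in neither. Of the 332, 8 were higher in IV-D IT and 2 in IV-D TE. All IV-D calls use FPKM as deposited, whereas the 332 genes were chosen under both scalings. The median of the higher genes was 6.42 FPKM in IV-D MO, 17.7 in IT and 42.0 in TE, so that IV-D IT lay below all 4 clone values. These genes were chosen for high values in the clone blastocyst libraries, which favours lower values in IV-D.

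**Figure D5:**
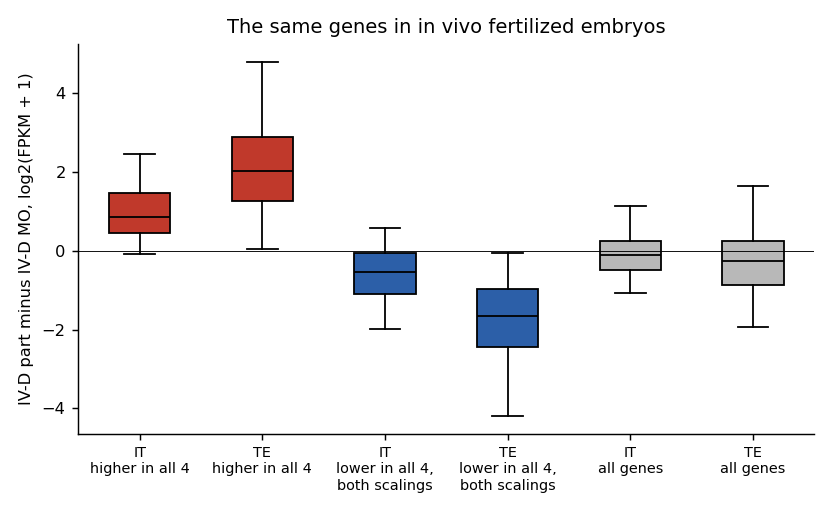
Log2(FPKM + 1) difference of the IV-D blastocyst part from IV-D MO (vertical axis) for genes higher in all 4 clone libraries (red), lower in all 4 under both scalings (blue) and all genes (grey), with boxes from the lower to the upper quartile, the median as a line and whiskers from the 5th to the 95th percentile of genes. Medians of the red boxes are 0.87 in IT and 2.01 in TE, and those of the blue boxes are -0.54 and -1.65.

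Some members were lower in IV-D IT than in the clone IT parts, an order that choosing them by clone values favours. FCER1G was 1.55, 33.02 and 601 FPKM in IV-D MO, IT and TE. DPP4 was 1.24, 2.91 and 42.9 FPKM, and NUPR1 was 4.47, 21.5 and 1042. In the clones the IT and TE values of these genes lay closer, NUPR1 in NT-LW being the most unequal with 1424 and 570. ASNS was 4.76, 7.60 and 664 FPKM in IV-D MO, IT and TE, against 153 and 39.4 in the clone morulae and 435 to 627 in the clone blastocyst parts. Both main chaperones were lower in the IV-D blastocyst parts than in those of the clones. HSPA5 was 139.6, 266 and 172 FPKM and HSP90B1 was 149.7, 104 and 241 in IV-D MO, IT and TE. The protein folding list had medians of 0.55 and 0.84 in IV-D IT and TE against 1.39 to 1.81 in the clones. The cholesterol list had medians of 1.35 and 2.44 in IV-D IT and TE against 2.39 to 2.95 in the clones, so only IV-D IT lay below the clone range. With 1 IV-D library per part, these differences have no error.

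The donor lines were also read apart. In NT-D 546 genes (6.98%) were higher in both parts, 52.2% of them also in both parts of NT-LW, and in NT-LW 489 (6.66%) were, 58.3% of them also in NT-D. Of these, 152 and 136 passed in neither part of the other line. Lower in both parts were 2462 genes (31.5%) in NT-D and 1901 (25.9%) in NT-LW, with 935 and 511 in neither part of the other line. Passing in 1 line and not in the other was not tested as a difference between them. Higher in both NT-D parts and lower in both NT-LW parts were 3 genes, AFDN, H2AC20 and AQP11. The reverse was found for 7 genes. AFDN, a junction scaffold, was 1.80, 9.41 and 7.99 FPKM in NT-D MO, IT and TE and 14.4, 6.04 and 4.11 in NT-LW. PLA2G4A, a cytosolic phospholipase, was 13.6, 3.09 and 4.40 FPKM in NT-D and 6.59, 21.4 and 32.0 in NT-LW. In each case the morulae of the lines lay in the opposite order to the blastocysts.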

How the data were processed

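Of 23 libraries, 1 for each condition, the 6 of cloned morulae and blastocyst parts were compared, with 3 IV-D libraries as reference and the 8-cell libraries as values. The authors made cDNA with SMART-Seq v4, aligned paired reads to Sscrofa11.1 with HISAT2 2.0.4, counted with HTSeq 0.9.1 on the Ensembl annotation, and deposited FPKM for 8603 genes, 7371 with a symbol. The table is by its name one of differentially expressed genes, and the step that chose them is not given in the sources used here, so shares are shares of it.

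Differences were taken on log2(FPKM + 1), which understates the change of low genes. Whole fragments were recovered from the FPKM steps for 100% of genes, tested on simulated data, and gave depth, folds and 95% exact counting intervals, which cover counting error only. A fold against at most 3 fragments uses the level of 3 fragments when the count is 0. Limma 3.58.1 (R 4.3.3) with Benjamini-Hochberg adjustment was run with donor line as block, and promoters were read with pysam 0.24.0. Positions come from RefSeq by symbol, 1 position for 6910 symbols. Other steps used python 3.11.15, numpy 2.4.6, pandas 2.3.3 and scipy 1.17.1.

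Named genes are the 12 in each direction with the largest smallest difference over the 4 comparisons among those past the limit under both scalings with FPKM of at least 10, up to 6 per part and direction, 3 per arrangement of lines, genes of the pluripotency, hypoblast and trophectoderm lists, and up to 5 members of each other list. List members named beyond these, and the motifs, were chosen after values were seen. The members and the 25 gene lists were chosen with earlier results of these data known. Some list members are counted but not reported here by name.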

Additional observations from a re-analysis of the deposited data

Results flagged for a closer look

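These genes were picked out because every blastocyst part of one group moved past the limit one way and every part of another the opposite way. The differences between groups were not tested. SYCP3 was 0.572 and 1.58 FPKM in NT-D and NT-LW morulae and 24.8, 4.55, 23.6 and 13.9 in NT-D IT, NT-D TE, NT-LW IT and NT-LW TE, but 34.8, 13.05 and 13.3 in IV-D MO, IT and TE, so the mean log2 difference in IV-D minus that in the clones was -4.25. For HSPB1, a small heat shock protein, this value was 4.66, with 15.1 and 7.26 FPKM in the clone morulae and 0.488 in IV-D MO. CDKN1A, the p21 inhibitor of the cell cycle, gave 3.9, with 33.2 and 33.5 FPKM in the clone morulae against 0.601 in IV-D MO, while the blastocyst parts held 5.50 to 16.03 in the clones and 3.70 and 15.0 in IV-D. PSRC1, a spindle protein, gave 2.64, with 11.2 and 9.59 against 1.10 FPKM in the morulae. HSPB1, CDKN1A and PSRC1 were lower in all 4 clone libraries as deposited but not after scaling.

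Between the donor lines, the mean difference in NT-D minus that in NT-LW was 3.15 for AFDN, 3.21 for H2AC20, -3.47 for PLA2G4A, -3.17 for TLCD4 and -5.22 for ASB11. H2AC20, a histone gene, was 14.8 FPKM in NT-D MO and 167 in NT-LW MO. ASB11 was 40.3 and 2.38 FPKM and TLCD4 was 14.7 and 5.61 FPKM in the same libraries. Each of these rests on 1 morula library per line.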

How the results depend on the processing

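Median-ratio scaling moved the counts to 660 higher and 332 lower genes in all 4, to 1413 higher and 1350 lower in NT-D IT, 1458 and 1644 in NT-D TE, 1172 and 928 in NT-LW IT, and 1332 and 1162 in NT-LW TE. It left 10 genes higher and 1 lower in IT alone and 1 higher and 14 lower in TE alone. A log2 limit of 2 gave 87 higher and 118 lower genes in all 4, 213 and 663 in NT-D IT, 207 and 910 in NT-D TE, 221 and 344 in NT-LW IT, 222 and 689 in NT-LW TE, and 1 higher in IT alone, as fewer genes pass a larger limit. A pseudocount of 0.1 gave 18 genes lower and 1 higher in TE alone. The cause was not tested for the scaling and the pseudocount. Under an FPKM of at least 5, no filter, an equal sum of FPKM, the added exact binomial test on fragments (285 higher, 1100 lower) and limma (397 and 1536), counts stayed within 1.5 times the reported ones. Each of 41 named genes was recomputed in 1 of its comparisons, and none reversed there under another scaling or pseudocount. No paired analysis of replicates was possible because each group has 1 library, with no replicate numbers to pair. The limma fit pairs the stages by donor line instead. Leaving out a library leaves no comparison. The list of table genes and the missing replicates limit every count.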

Other observations

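The energy metabolism lists lay closer to the median of all genes than the sterol, protein folding and lysosomal lists did. Of 38 genes of oxidative phosphorylation 3 were higher in all 4 clone libraries (ATP5MC1, NDUFS8 and NDUFB9) and none was lower. Their median difference was 0.46, above the -0.64 over all genes. After median-ratio scaling 14 of the 38 were higher in all 4, where 660 of 7207 genes were. ATP5MC1, a subunit of the ATP synthase ring, was 468 and 539 FPKM in NT-D and NT-LW morulae and 1937, 1668, 2229 and 2024 in NT-D IT, NT-D TE, NT-LW IT and NT-LW TE. Of 15 glycolysis genes none was higher and PKM, the pyruvate kinase of muscle and proliferating cells, was lower, with 20.6 and 18.4 FPKM in the morulae and 3.84, 1.67, 3.29 and 3.23 later. In IV-D embryos PKM was 14.6, 17.3 and 5.22 FPKM in MO, IT and TE. Among 16 genes of fatty acids and lipid storage ACLY, which makes cytosolic acetyl-CoA, was higher, and ELOVL6, ACSL3 and, as deposited only, CPT1A were lower. Ribosomal proteins (38 genes) had none past the limit in all 4 and a median of 0.11, and of 26 proteasome genes only PSMD13 was lower, and not after scaling.

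The signalling, antioxidant and cell death lists gave few calls, against 3.95% of all genes higher and 15.3% lower in all 4. WNT6, a secreted ligand, was 0.412 and 0.347 FPKM in the morulae and 7.92, 13.9, 4.08 and 7.30 in the blastocyst parts, and IGF2R, which clears IGF2, was 2.46 and 1.26 FPKM and then 8.83, 9.10, 6.17 and 9.01. These were the only higher genes of 26 signalling genes, with none lower. Of 21 NRF2 and antioxidant genes MGST1 and SLC7A11, the cystine transporter, were higher, the latter from 4.39 and 1.09 FPKM to 15.9, 27.4, 17.3 and 24.8. In IV-D it was 0.892, 0.219 and 35.4 FPKM in MO, IT and TE. Of 24 p53 and cell death genes TP53I3 was higher and 4 were lower, among them CDKN1A, BAK1 and CASP6, none of the 4 under both scalings, shares near those of all genes. Of 16 genes of DNA methylation and imprinting IGF2R was higher and DNMT1, PEG10 and, as deposited only, SNRPN were lower, PEG10 from 5.90 and 6.07 FPKM to at most 1.41. Of 19 histone lysine methylation enzymes only EZH1 was lower, not after scaling, and none was higher. The 4 cumulus cell markers in the table summed to 57.0 and 57.7 FPKM in the morulae and 24.9 to 45.0 in the blastocyst parts, and the 2 of them that could be read in all 4 comparisons were not past the limit in all 4.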
